A study of Mus musculus with 15 samples.

Results

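Intronless genes are genes whose transcript is a single exon. Here they are the rows of the study's gene table in which the exon length equals the gene length to within 2 bp, leaving out the olfactory and vomeronasal receptor, microRNA and clustered histone symbols. The rule found 993 rows with 855 symbols among 28373 rows with 22035 symbols. Of these rows, 698 carry RefSeq IDs of protein-coding transcripts (NM) and 295 those of noncoding transcripts (NR). Their median length was 1264 bp, from 42 to 14357 bp. They were set against 24598 rows (18728 symbols) of genes with introns, in which the gene was at least 50 bp longer than its exons.

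The libraries came from male wild-type TT2 cells, a mouse embryonic stem (ES) cell line of the strain C57BL/6 x CBA derived from the inner cell mass of the blastocyst. Histone marks were profiled by native ChIP-seq, which precipitates nucleosomes without crosslinking: H3K27me3 from 100000, 10000 and 1000 cells, H3K4me3 from 100000, 10000 and 5000 cells, and H3K9me3 from 1000000, 100000, 10000 and 1000 cells. An antibody against H3 whatever its modification (panH3) was used on 1000 cells, and total RNA depleted of ribosomal RNA was sequenced from 1000 cells. There were 3 libraries of H3K9me3 and 2 of panH3 at 1000 cells, and 1 library of every other kind, so the RNA, H3K27me3 and H3K4me3 values below have no replicate check.

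Single-exon genes of mammals have several origins. Some are retrogenes, copied into the genome from a spliced messenger RNA. Others belong to old families that have long been encoded in a single exon, among them many forkhead, Sox, POU and basic helix-loop-helix transcription factors and many G protein-coupled receptors. Small nucleolar RNAs form another kind, most of them processed from the introns of host genes. In ES cells, Polycomb repressive complex 2 lays down H3K27me3 at CpG-rich promoters of developmental regulators that are not transcribed, whereas H3K4me3 marks active promoters and most CpG islands.

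The stretches before the start sites of 6 members show the range of promoters behind the values that follow. Purb encodes a single-stranded DNA-binding protein and had the highest H3K4me3 of the members at 100000 cells, and Sox2, a core pluripotency factor, was among those with the highest RNA. Foxd4 and Neurog1 encode a forkhead and a proneural factor with high H3K27me3 and next to no RNA. Bhlha9 had high H3K27me3 at a promoter poor in CpG. Tas2r119 is a bitter taste receptor gene picked after its values were seen, with RNA listed at 0 and H3K4me3 of 0.12 RPKM at 100000 cells. Its H3K27me3 of 0.37, 0.32 and 0.55 RPKM (100000, 10000 and 1000 cells) was under 1 RPKM but above the member medians of 0.26, 0.26 and 0.30 RPKM. Each is the 250 bases upstream of the start annotated by RefSeq on GRCm38.p6, 5′ to 3′ on the gene's strand, with CpG dinucleotides in capitals. Purb lies at chr11:6476077-6476326 (- strand), Sox2 at chr3:34649745-34649994 (+ strand), Foxd4 at chr19:24901017-24901266 (- strand), Neurog1 at chr13:56252181-56252430 (- strand), Bhlha9 at chr11:76672220-76672469 (+ strand) and Tas2r119 at chr15:32177039-32177288 (+ strand).
Purb: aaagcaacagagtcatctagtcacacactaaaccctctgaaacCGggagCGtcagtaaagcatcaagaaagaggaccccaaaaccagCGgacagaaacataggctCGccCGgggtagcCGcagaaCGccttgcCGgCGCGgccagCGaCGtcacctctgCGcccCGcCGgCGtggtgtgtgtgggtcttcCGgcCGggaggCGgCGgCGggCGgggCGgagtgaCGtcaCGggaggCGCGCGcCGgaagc
Sox2: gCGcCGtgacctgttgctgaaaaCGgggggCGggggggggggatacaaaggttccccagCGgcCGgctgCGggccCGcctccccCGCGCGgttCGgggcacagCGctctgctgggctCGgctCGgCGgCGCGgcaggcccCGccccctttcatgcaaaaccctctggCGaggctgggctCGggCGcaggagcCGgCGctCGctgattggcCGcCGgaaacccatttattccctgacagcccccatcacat
Foxd4: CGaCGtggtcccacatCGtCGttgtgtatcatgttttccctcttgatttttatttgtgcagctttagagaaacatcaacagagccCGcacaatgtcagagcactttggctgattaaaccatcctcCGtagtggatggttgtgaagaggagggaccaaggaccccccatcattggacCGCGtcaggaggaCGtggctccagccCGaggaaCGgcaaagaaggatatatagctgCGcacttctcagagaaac
Neurog1: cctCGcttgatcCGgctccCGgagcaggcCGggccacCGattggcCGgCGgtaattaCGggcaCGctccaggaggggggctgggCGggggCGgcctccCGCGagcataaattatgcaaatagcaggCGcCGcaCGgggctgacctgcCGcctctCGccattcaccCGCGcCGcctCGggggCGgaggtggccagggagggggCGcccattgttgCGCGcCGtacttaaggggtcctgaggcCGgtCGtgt
Bhlha9: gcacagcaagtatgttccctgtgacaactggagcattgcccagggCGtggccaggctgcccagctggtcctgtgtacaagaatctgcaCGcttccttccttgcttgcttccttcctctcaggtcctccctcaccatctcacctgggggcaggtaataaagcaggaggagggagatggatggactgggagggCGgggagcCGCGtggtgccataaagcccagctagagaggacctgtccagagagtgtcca
Tas2r119: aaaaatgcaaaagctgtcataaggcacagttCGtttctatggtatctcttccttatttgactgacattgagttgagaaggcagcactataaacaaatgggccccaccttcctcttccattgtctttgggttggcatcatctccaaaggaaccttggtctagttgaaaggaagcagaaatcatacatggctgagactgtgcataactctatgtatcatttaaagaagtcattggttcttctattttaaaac
The stretches of Purb and Neurog1 hold 29 CpG each and that of Sox2 27, against 12 for Foxd4, 5 for Bhlha9 and 1 for Tas2r119. The marks were counted by the authors around mm9 start sites, so the RefSeq start may not be the start behind a value. In mm9 the gene table places Purb at chr11:6374784-6375920, Sox2 at chr3:34548928-34551384, Foxd4 at chr19:24973454-24975800 and Neurog1 at chr13:56351860-56353524.

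The smallest steps between deposited values put the libraries of the bin table at 13 to 45.5 M reads (M for 1000000) and the H3K4me3 libraries at 16.6, 1.07 and 1.86 M reads (100000, 10000 and 5000 cells). A single read at a start site then counted as 0.0602, 0.938 and 0.539 RPKM of H3K4me3. All 10 ES cell markers had RNA of at least 1 RPKM (15.01 to 221.8). Of 10 fibroblast markers, looked at because ES cells can be grown on feeder cells, 2 reached 1 RPKM and 5 were listed at 0, with 13.5 as the highest. None of 4 endoderm and 5 trophoblast markers reached 1 RPKM, and 1 of 4 neural markers did. panH3 in bins averaged 0.592 RPKM on chromosomes 1, 8 and 11 and 0.396 on the other autosomes, a ratio of 1.5, and members on those 3 chromosomes more often had RNA of at least 1 RPKM (38.2% of 131) than the other members (18.2% of 862). H3K27me3 of at least 1 RPKM (18.3% against 11.4%) and H3K4me3 of at least 5 RPKM (27.1% of 70 against 10.6% of 492 symbols) were also more frequent there. Intron-containing genes had the same order, with 61.8% against 56.8% for RNA, 15.4% against 7.55% for H3K27me3 and 41.4% against 24.8% for H3K4me3. The part of the panH3 excess in these differences was not tested.

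RNA was much lower over intronless genes than over genes with introns. RPKM, reads per kilobase of transcript or window, scaled to library size, was counted by the authors over exons, so levels are scaled to exon length. Whether this makes the 168 members under 500 bp comparable with longer genes was not tested. The median was 0.02 RPKM for intronless and 1.90 RPKM for intron-containing rows. A level of at least 1 RPKM was reached by 207 of 993 intronless rows (20.8%, exact 95% interval 18.4 to 23.5) and by 57.7% of intron-containing rows (57.1 to 58.4), with 51.6% over the whole table. RNA was listed at 0 in 465 intronless rows (46.8%) and in 13.3% of intron-containing rows, against 20.4% of all rows. These intervals cover counting over rows and no other error, since genes are not replicates.

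Part of the silent rows are copies of repeated genes. There were 206 member rows whose RefSeq ID has several rows in the table (68 IDs), among them the Snord116 copies. Of these, 196 were listed at 0 RNA and 115 at 0 in all 3 H3K27me3 libraries, while 7 of the 787 other member rows were at 0 in all 3. Reads from near-identical copies could be left out or split in the authors' counting, so a 0 in such a row is uncertain. Without them, 25.4% of 787 intronless rows had RNA of at least 1 RPKM, against 58.9% of intron-containing rows.

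The members with the highest RNA were noncoding RNAs and protein-coding genes of several kinds. Rmrp, the RNA component of the RNase MRP ribonuclease, was at 2372 RPKM, Malat1, a long nuclear noncoding RNA, at 246.7 RPKM, and Rprl3, an RNase P RNA-like copy, at 112.7 RPKM. Rprl3 may share reads with the RNase P RNA gene itself. The clone-named E130012A19Rik stood at 141.7 RPKM. Among named protein-coding members, H2afx, the histone variant phosphorylated at DNA breaks, was highest at 85.3 RPKM, followed by Sox2 at 76.0 RPKM. Hnrnpa0, an RNA-binding protein gene, had 57.9 RPKM and Sf3b5, a splicing factor subunit gene, 29.6 RPKM.

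Small structural RNA genes, mainly small nucleolar RNAs, differed from the coding members. RNA of at least 1 RPKM was found in 71 of these 127 rows (55.9%), with a median of 2.01 RPKM. Most lay inside a gene with introns. Where that host had at least 10 RPKM, 40 of 46 reached 1 RPKM, and where it had 1 to under 10 RPKM, 20 of 23 did. Where the host was under 1 RPKM, 3 of 11 did so, and 8 of the 47 rows without such a host. The 127 rows hold 89 symbols, so repeated copies, whose 0 is uncertain, are counted more than once. The host counts were not repeated per symbol. The level of the small RNA was above that of its host in 22 of 80 cases. Snord22 was listed at 62.1 RPKM inside Snhg1, a host gene of small nucleolar RNAs with 27.8 RPKM, and Snord96a at 19.6 RPKM inside Gnb2l1 with 59.7 RPKM. Reads of a small RNA and of its host's unspliced transcript cannot be told apart here, and the use of strand in the counting is not given in the sources used here.

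Sox2 also lies within another gene, the noncoding Sox2ot, which was listed at 67.5 RPKM beside 76.0 RPKM for Sox2. The deposited values do not show which of the reads over Sox2 belong to which of the overlapping genes. Zbed6, a transcription factor gene inside Zc3h11a, was listed at 18.9 RPKM and its host at 22.3 RPKM. Over all members, 59 of the 94 rows inside a host of at least 10 RPKM reached 1 RPKM, against 4 of 59 rows inside a host under 1 RPKM. Of the 59, 40 were small structural RNA genes, and among protein-coding members 7 of 32 inside a host of at least 10 RPKM reached 1 RPKM (21.9%).

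**Figure D1:**
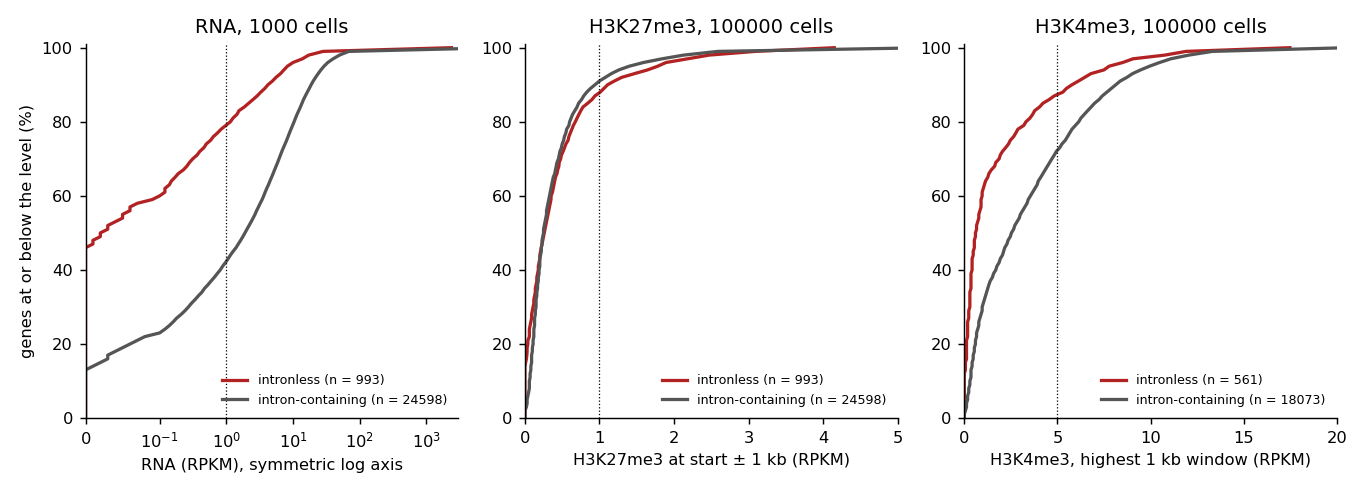
Cumulative distributions of RNA (1000 cells), H3K27me3 within 1 kb of the start (100000 cells) and H3K4me3 in the highest 1 kb window of a gene (100000 cells), in RPKM, for intronless and intron-containing genes; n counts rows, or symbols for H3K4me3, and dotted lines mark 1, 1 and 5 RPKM. The RNA and H3K4me3 curves of intronless genes lie above those of intron-containing genes (medians 0.02 against 1.90 and 0.60 against 2.53 RPKM), whereas the H3K27me3 curves nearly coincide at the median (0.26 and 0.25 RPKM) and part around 1 RPKM.

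H3K27me3 at the start sites had nearly the same median in both groups, but a larger share of intronless genes stood high. Median H3K27me3 at 100000, 10000 and 1000 cells was 0.26, 0.26 and 0.30 RPKM for intronless rows and 0.25, 0.25 and 0.29 RPKM for intron-containing rows. At 100000 cells, 122 intronless rows had at least 1 RPKM (12.3%, interval 10.3 to 14.5), against 9.01% (8.65 to 9.37) of intron-containing rows and 8.71% of the table. The library of 10000 cells gave 13.6% of intronless and 10.4% of intron-containing rows, with 10.1% over the table. That of 1000 cells gave 7.45% and 4.83%, with 4.7% over the table. The gap was wider among protein-coding IDs with a single row, at 19.4% of 541 intronless (16.2 to 23) and 9.22% of 23013 intron-containing rows.

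The 122 members chosen at 1 RPKM or more at 100000 cells ranged from 1.00 to 4.15 RPKM there, with a median of 1.64 RPKM. Their levels ran from 0.64 to 5.23 RPKM in the library of 10000 cells, where 114 of them also had at least 1 RPKM, and from 0.45 to 2.71 RPKM in that of 1000 cells, where 65 did. Of the 871 other members, 21 reached 1 RPKM at 10000 cells and 9 at 1000 cells. The set with high H3K27me3 was thus largely the same at 10000 cells and smaller at 1000 cells.

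Most forkhead, basic helix-loop-helix and POU genes were in that set, as were 40 members in no class, 24 with provisional names and 14 protocadherin genes. Among forkhead genes, which encode regulators of organ formation, 7 of 8 had at least 1 RPKM of H3K27me3 at 100000 cells, with a class median of 1.98 RPKM beside 0.25 RPKM over all rows. Foxl1 had H3K27me3 of 3.92, 4.09 and 2.59 RPKM at 100000, 10000 and 1000 cells, and Foxd4 3.76, 4.78 and 2.04 RPKM. Foxb2 followed with 2.84, 3.16 and 1.55 RPKM, and Foxs1 was the exception with 0.55, 0.89 and 0.35 RPKM. No forkhead member exceeded 0.18 RPKM of RNA (Foxe1).

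Basic helix-loop-helix genes of neural and other lineages had H3K27me3 of at least 1 RPKM in 6 of 7 cases at each of the 3 cell numbers. Bhlha9 had 3.12, 3.67 and 2.14 RPKM at 100000, 10000 and 1000 cells, and Neurog1, a proneural factor, 2.94, 3.03 and 1.67 RPKM. Bhlhe22, a factor of cortical neurons, had 2.18, 2.31 and 1.34 RPKM, and Atoh1, needed for hair cells and cerebellar granule cells, 1.83, 1.75 and 1.34 RPKM. The exception, Msgn1, a factor of the presomitic mesoderm that was picked after its value was seen, had 0.48 RPKM at 100000 cells. RNA was listed at 0 for 5 of the 7 and at 0.06 and 0.03 RPKM for Neurog1 and Bhlhe22.

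The 3 POU genes, factors of neural development, had H3K27me3 at 100000 cells of 2.58 (Pou3f2), 2.48 (Pou3f3) and 0.80 RPKM (Pou3f4), with 0.04 to 0.10 RPKM of RNA. Sox genes fell on both sides. Sox2, Sox4 and Sox11 had 76.0, 8.95 and 3.68 RPKM of RNA and H3K27me3 of 0.71, 0.16 and 0.40 RPKM at 100000 cells. Sox14, Sox1 and Sox3, factors of neural progenitors and neurons, had 0.00, 0.68 and 0.23 RPKM of RNA and H3K27me3 of 3.09, 1.84 and 1.45 RPKM. The remaining gene of the 7 had RNA listed at 0 and 0.12 RPKM of H3K27me3. The 3 with RNA of at least 1 RPKM were thus all under 1 RPKM of H3K27me3 in that library, which is not particular to Sox genes. Among intron-containing rows, 4.65% with RNA of 1 to under 10 RPKM and 1.14% with at least 10 RPKM had H3K27me3 of at least 1 RPKM.

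Of 8 inducible genes, 5 had RNA of at least 1 RPKM, beside 51.6% of all rows. H3K27me3 of at least 1 RPKM at 100000 cells was found in 3, beside 8.71% of all rows, and Mafa was in both sets. Ier2 and Junb, immediate early genes, had 16.5 and 8.0 RPKM of RNA with H3K27me3 of 0.06 and 0.27 RPKM and H3K4me3 of 10.4 and 5.54 RPKM at 100000 cells. Mafa, Cebpa and Maf, regulators of pancreatic beta cells, fat and liver cells, and lens, had H3K27me3 of 2.40, 1.67 and 1.48 RPKM with 1.48, 0.79 and 0.01 RPKM of RNA. Mafa is 1 of 6 member rows with at least 1 RPKM of both RNA and H3K27me3.

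Receptor genes split by kind. Of 26 G protein-coupled receptors outside the chemical senses, 11 had H3K27me3 of at least 1 RPKM at 100000 cells, and none had RNA of at least 1 RPKM (highest 0.62 RPKM for Gpr151, an orphan receptor). The highest of the class were amine receptors: the dopamine receptor Drd5 with 2.28, 2.98 and 1.32 RPKM at 100000, 10000 and 1000 cells, the adrenergic receptor Adra2a with 2.07, 2.10 and 0.87 RPKM, and the serotonin receptor Htr1a with 1.95, 2.40 and 1.02 RPKM. Of 41 taste, trace amine and formyl peptide receptors, 1 had at least 1 RPKM (Tas2r144, 1.21, 0.94 and 0.78 RPKM), and the class median was 0.41 RPKM. RNA of these receptors was listed at 0 for 36 of 41. The class of G protein-coupled receptors was drawn up by symbol and is not complete: Prlhr, a peptide receptor gene left among the members in no class and picked after its values were seen, had 2.42, 2.07 and 1.61 RPKM. Both kinds of receptor were thus without RNA of 1 RPKM, but 42.3% of the first (interval 23.4 to 63.1) and 2.44% of the second (0.0617 to 12.9) had H3K27me3 of at least 1 RPKM. The share over all rows was 8.71%, which lies below the interval of the first kind and inside that of the second.

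Among protocadherin genes, adhesion molecules of neurons, 14 of 18 had at least 1 RPKM of H3K27me3 at 100000 cells, 15 at 10000 cells and 6 at 1000 cells, with medians of 1.17, 1.21 and 0.85 RPKM. All but Pcdh10 belong to 1 cluster on chromosome 18, so these rows are neighbours and not independent. Pcdhb20 had H3K27me3 of 2.12, 1.70 and 1.17 RPKM, and Pcdh10, on chromosome 3, 1.93, 2.64 and 0.66 RPKM. The highest H3K4me3 among them was 0.90 RPKM (Pcdhb1) at 100000 cells, and RNA did not exceed 0.10 RPKM.

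Keratin-associated protein and interferon genes had no RNA, and 1 gene of each class had H3K27me3 of at least 1 RPKM at 100000 cells. The exact intervals of these shares (0.1205 to 23.8% of 21 and 0.316 to 52.65% of 8) cover the 8.71% of all rows. Class medians were 0.44 and 0.585 RPKM, above the 0.25 RPKM of all rows. All 21 keratin-associated protein genes, which encode proteins of the hair shaft, were listed at 0 RNA, and 1 of them had H3K27me3 of at least 1 RPKM (Krtap31-2, 1.07, 1.17 and 0.52 RPKM). The 8 interferon genes were also listed at 0 RNA, with H3K27me3 of 1.13, 1.00 and 0.99 RPKM at the highest, Ifnb1. Testis retrogenes and Adam genes, copies used in sperm formation, had at least 1 RPKM of H3K27me3 in 1 of 20 cases, Rbmxl2. The interval of that share (0.1265 to 24.9%) also covers 8.71%. They had at least 1 RPKM of RNA in 3 cases, Rbmxl2 (16.8 RPKM), Cstf2t (7.08 RPKM) and Tssk6 (1.41 RPKM). Among imprinted members Peg12 and Magel2, from the Prader-Willi region, had H3K27me3 of 1.87 and 1.10 RPKM, and Zrsr1, a retrogene of a splicing factor, had 0.20 RPKM with 5.60 RPKM of RNA.

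Among heat shock genes, Dnajb3, a chaperone cofactor gene, had H3K27me3 of 4.09, 3.41 and 2.29 RPKM, and the inducible chaperone genes Hspa1a and Hspa1b 1.57 and 1.44 RPKM at 100000 cells. Hspa1a and Hspa1b are near-identical copies, so their values are uncertain. The highest value of all members belonged to 2900092D14Rik, a noncoding clone-named gene, with 4.15, 5.23 and 2.71 RPKM. Of 409 rows with provisional names 24 (5.87%) and of 262 members in no class 40 (15.3%) had at least 1 RPKM. Among the latter were Fbll1, a fibrillarin-like gene, with 3.76 RPKM and Klf14, a Krüppel-like factor gene, with 3.17 RPKM. No small structural RNA gene did so at 100000 cells (0 of 127, which an exact interval bounds at 2.86%).

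**Figure D2:**
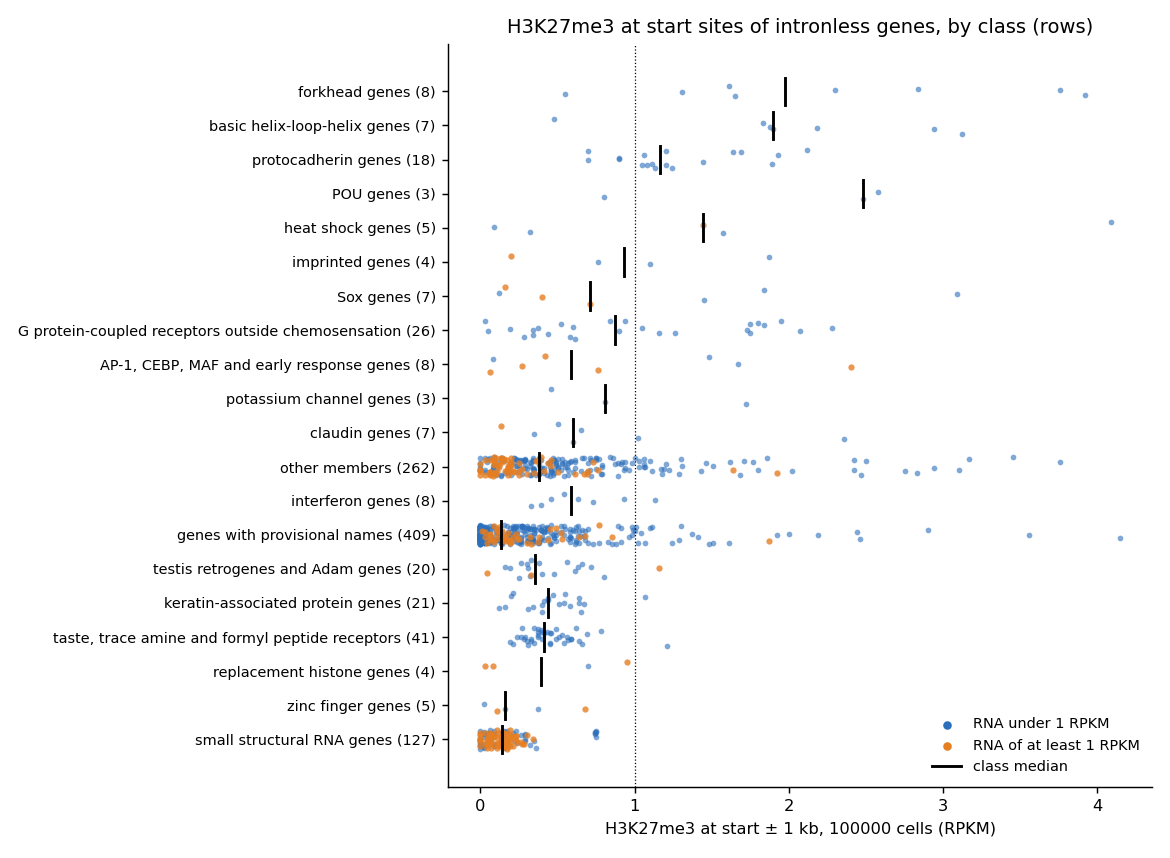
H3K27me3 at 100000 cells (RPKM, x axis) of every intronless gene row, by class of gene with the number of rows; points are rows coloured by RNA of under or at least 1 RPKM, jittered vertically, black bars are class medians and the dotted line marks 1 RPKM. Forkhead, basic helix-loop-helix and protocadherin genes lie mostly right of the line (7 of 8, 6 of 7 and 14 of 18), keratin-associated protein genes (1 of 21) and chemosensory receptors (1 of 41) almost all left of it.

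H3K4me3 was measured in 1 kb windows at start sites, and 561 member symbols and 18073 intron-containing symbols had a window. The highest window of a symbol stood for it, and the median number of windows was 1 for members and 2 for intron-containing genes. The table holds no window above 49.2, 99.4 and 49.6 RPKM at 100000, 10000 and 5000 cells, so a member without a window, such as Foxl1 or H1f0, need not be low. Median H3K4me3 at 100000, 10000 and 5000 cells was 0.60, 0.94 and 0.54 RPKM for intronless symbols and 2.53, 10.3 and 4.85 RPKM for intron-containing symbols. The intronless medians at 10000 and 5000 cells correspond to 1 read. At 100000 cells 71 intronless symbols (12.7%, interval 10.02 to 15.7) and 27.97% of intron-containing symbols (27.3 to 28.6) had at least 5 RPKM, against 21.4% of the 25727 symbols of the start-site table. With the mean over a symbol's windows in place of the highest, these shares were 11.4% and 16.6%.

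The 10 highest members in H3K4me3 at 100000 cells held 7 named genes and 3 with provisional names. Purb had 17.5, 75.9 and 32.9 RPKM at 100000, 10000 and 5000 cells, Pigm, a mannosyltransferase of GPI anchor synthesis, 14.9, 94.7 and 40.4 RPKM, and Mocs3, an enzyme of molybdenum cofactor synthesis, 14.4, 93.8 and 40.4 RPKM. Exoc8, an exocyst subunit gene, Ddx28, a mitochondrial RNA helicase gene, Tbcc, a tubulin folding cofactor gene, and Fzd7, a Wnt receptor gene, had 13.5, 11.8, 11.7 and 11.1 RPKM at 100000 cells. RNA of these 7 genes lay between 2.67 RPKM (Exoc8) and 16.3 RPKM (Purb). Malat1, with far more RNA, had H3K4me3 of 3.49, 56.2 and 25.3 RPKM, a value under the threshold in the deepest library and high in the other 2.

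The 71 members at or above 5 RPKM at 100000 cells had 2.81 to 95.6 RPKM (median 42.2) at 10000 cells and 4.31 to 40.4 RPKM (median 18.3) at 5000 cells. None of them was at 0 in these libraries, whereas 255 and 210 of the 490 others were. The lowest of the 71 in both small libraries was Dux, a multi-copy gene of the cleavage embryo, with 7.47, 2.81 and 4.31 RPKM.

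Among genes with RNA of at least 1 RPKM, H3K4me3 was not lower at intronless genes. Between 1 and under 10 RPKM of RNA, 39 of 72 intronless symbols (54.2%, interval 42 to 66) and 33.8% of 6826 intron-containing symbols (32.7 to 34.9) had H3K4me3 of at least 5 RPKM, with medians of 5.42 and 3.73 RPKM at 100000 cells. The medians at 10000 and 5000 cells were 26.2 and 11.8 RPKM for intronless and 18.8 and 8.62 RPKM for intron-containing symbols. At 10 RPKM and above, 13 of 16 intronless symbols (81.2%, 54.4 to 96.0) and 66.04% of the others (64.5 to 67.6) passed 5 RPKM, with overlapping intervals. At RNA listed at 0, 4 of 242 intronless symbols (1.65%) and 2.76% of 2357 intron-containing symbols passed 5 RPKM, with medians of 0.18 and 0.36 RPKM at 100000 cells. Median RNA between 1 and under 10 RPKM was 3.10 RPKM for all intronless and 3.78 RPKM for intron-containing rows.

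Some start sites of intronless genes are shared with a neighbour. Of the 71 members with H3K4me3 of at least 5 RPKM, 23 (32.4%) started within 1 kb of the start of an intron-containing gene with another symbol, against 17 of 392 members (4.34%) with neither mark. Gm10638, with 12.05 RPKM of H3K4me3 and 0.21 RPKM of RNA, is an example of high H3K4me3 with little RNA. Whether a neighbour plays a part in its H3K4me3 was not tested. Leaving out members near any intron-containing start, 9.38% of 501 intronless symbols had at least 5 RPKM, and 47.5% of 59 symbols (28) with RNA of 1 to under 10 RPKM did.

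Genes with little or no RNA were compared in H3K27me3 within classes of RNA. At RNA above 0 and under 1 RPKM, H3K27me3 of at least 1 RPKM was found in 77 of 321 intronless rows (24.0%, interval 19.4 to 29.1) and 19.2% of intron-containing rows (18.3 to 20.1). With protein-coding IDs of a single row these shares were 29.96% of 227 and 19.6% of 6703. At RNA listed at 0, 39 of 465 intronless rows (8.39%) and 11.2% of intron-containing rows had it, and with protein-coding IDs of a single row the order turned, to 14.5% of 220 and 13.3% of 2588. Spearman correlation between RNA and H3K27me3 at 100000 cells was 0.0419 across 993 intronless rows and -0.462 across 24598 intron-containing rows. Between RNA and H3K4me3 it was 0.701 across 561 and 0.719 across 18073 symbols. These values come from 1 library of each kind, and genes are not independent replicates. The 993 rows include the 206 with repeated IDs, of which 196 were at 0 RNA and 115 at 0 in every H3K27me3 library. No correlation was computed without these rows, so 0.0419 may not hold for the others. Among protein-coding IDs of a single row, median H3K27me3 of intronless rows at 100000 cells was 0.475 RPKM at RNA listed at 0. It was 0.55 RPKM above 0 and under 1 RPKM of RNA, and 0.2 RPKM from 1 to under 10. The intron-containing medians were 0.5, 0.49 and 0.195 RPKM.

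At thresholds of 5 RPKM of H3K4me3 and 1 RPKM of H3K27me3, both marks together were about as rare at intronless genes as in the whole table. The count depends on these thresholds, and no other pair was tried. Of 561 symbols, 66 (11.8%) had H3K4me3 of at least 5 RPKM alone, 98 (17.5%) H3K27me3 of at least 1 RPKM alone, 5 (0.891%) both and 392 (69.9%) neither. Among 18054 intron-containing symbols the shares were 27.2%, 9.08%, 0.792% and 62.9%, and both marks were found at 0.748% of all 20317 symbols with a window. RNA reached 1 RPKM in 51 of the 66 and in 4 of the 98. The 5 with both, named after their values were seen, were 5430417L22Rik, Ankrd43, Cdk5r2, Dux and Frat2, with RNA of 0.75, 0.10, 0.31, 0.03 and 1.19 RPKM. Ankrd43 had the highest H3K27me3 of the 5, with 3.45, 3.55 and 2.10 RPKM, beside H3K4me3 of 6.56, 12.2 and 6.46 RPKM. Of symbols with H3K27me3 of at least 1 RPKM, 98 of 103 intronless (95.1%) and 78.8% of 1783 intron-containing symbols had RNA under 1 RPKM. Their median H3K4me3 at 100000 cells was 1.63 RPKM in both groups, beside 0.60 RPKM over all intronless and 2.53 RPKM over all intron-containing symbols. A gene with H3K27me3 alone can thus hold H3K4me3 below the threshold. Cebpa, for example, had H3K4me3 of 4.04, 15.9 and 6.46 RPKM at 100000, 10000 and 5000 cells.

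**Figure D3:**
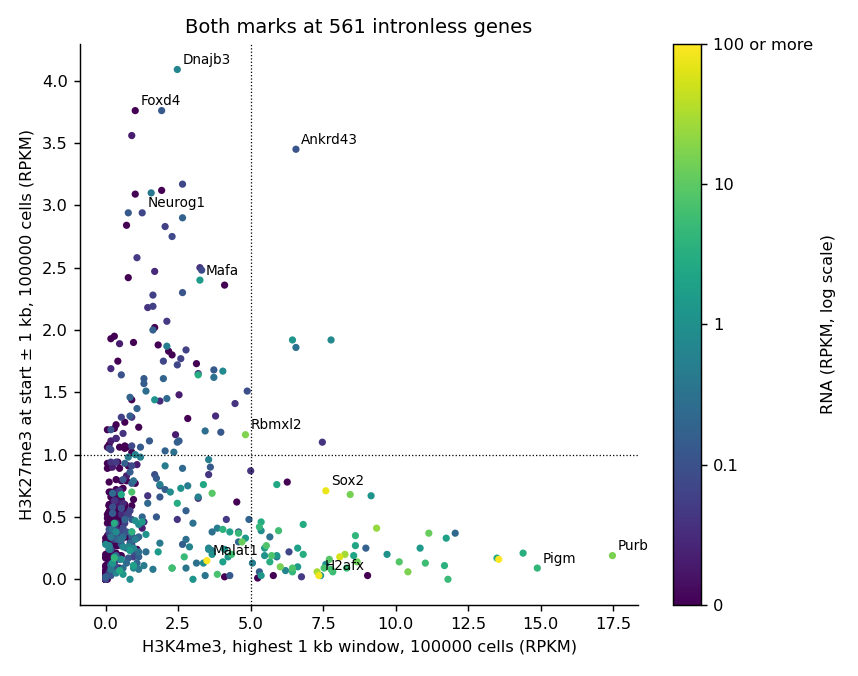
H3K4me3 in the highest 1 kb window (x axis) and H3K27me3 within 1 kb of the start (y axis), both at 100000 cells in RPKM, of the 561 intronless genes with a window; each point is a gene coloured by RNA on a log scale, and dotted lines mark 5 and 1 RPKM. The 98 genes above the H3K27me3 line alone are nearly all dark (RNA under 1 RPKM in 94), the 66 right of the H3K4me3 line alone are mostly light, and 5 lie beyond both lines.

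Promoter sequence, which the choice of members did not use, differed between the groups and went with the marks. Promoter windows of RefSeq (GRCm38.p6, 250 bases before to 50 after the start) were found for 500 of 855 member symbols, 399 by symbol and the others by accession. The 495 members and 11987 intron-containing genes with exactly 1 window were used. They were divided by the ratio of observed to expected CpG into a high class (at least 0.75, with at least 55% G and C), a low class (under 0.48) and an intermediate class. Median CpG ratio was 0.362 for intronless and 0.665 for intron-containing genes, and the median number of CpG 7 and 17. The low class held 56.4% of intronless and 35.8% of intron-containing promoters, the high class 22.4% and 35.4%.

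CpG content differed between the states of the marks, with overlapping ranges. Members with H3K4me3 alone had a median of 26 CpG in 300 bases (5 to 52, n = 54), those with H3K27me3 alone 17 (1 to 38, n = 63) and those with neither 3 (0 to 53, n = 275). All 34 taste, trace amine and formyl peptide receptor genes, all 19 keratin-associated protein genes and all 7 interferon genes with a window were in the low class, with medians of 1, 2 and 2 CpG. Sox genes had a median of 23.5 CpG (n = 6), forkhead genes 19.5 (n = 4) and POU genes 18 (n = 3). Basic helix-loop-helix genes were lower, with 8 (n = 6) and 4 of 6 in the low class, as in the stretch of Bhlha9 above.

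Among genes with RNA under 1 RPKM and a promoter window, H3K27me3 of at least 1 RPKM was about as frequent in both groups, at 17.8% of 409 intronless (14.3 to 21.9) and 16.7% of 5230 intron-containing genes. Divided by CpG class, H3K27me3 of at least 1 RPKM was found in 41.9% of 62 intronless (29.5 to 55.2) and 32.6% of 727 intron-containing genes (29.2 to 36.1) of the high class. In the intermediate class the shares were 35.6% of 73 (24.7 to 47.7) and 26.6% of 1073, and in the low class 7.66% of 274 (4.81 to 11.5) and 10.3% of 3430. The interval of the intronless share covers the intron-containing share in each class. Among genes with RNA of at least 1 RPKM, H3K4me3 of at least 5 RPKM was found in 71.4% of 42 intronless (55.4 to 84.3) and 59.5% of 3447 intron-containing genes of the high class, and in 54.2% of 24 and 36.6% of 2364 of the intermediate class. RNA itself differed within the classes. In the high class 44.1% of 111 intronless and 82.8% of 4239 intron-containing genes had at least 1 RPKM, and in the low class 1.79% of 279 and 20.03% of 4289.

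**Figure D4:**
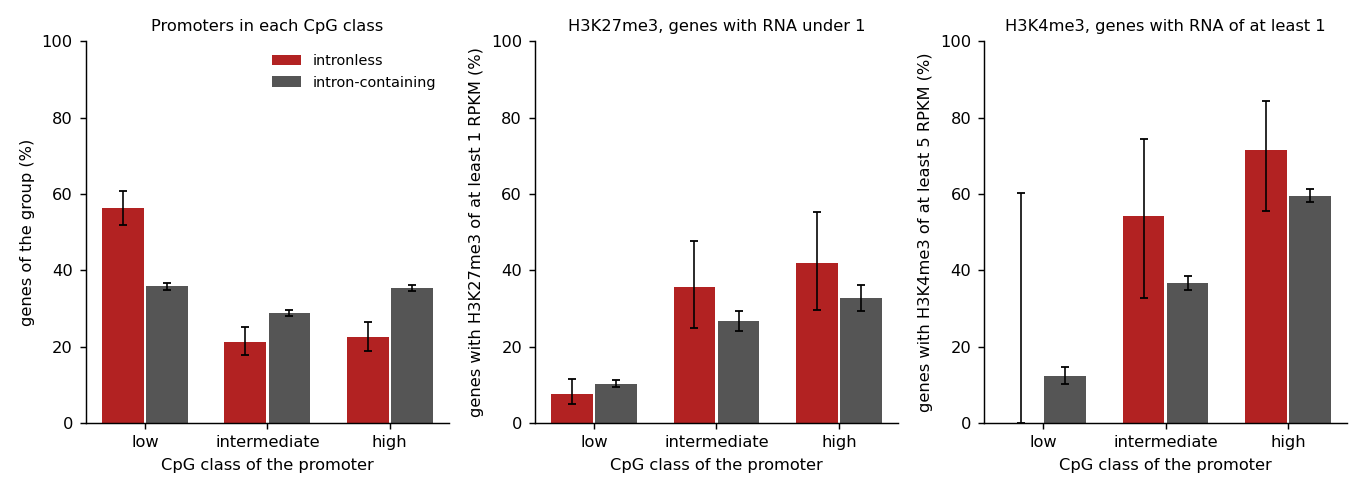
Shares by CpG class of the promoter for intronless and intron-containing genes: the share of each group in the class, the share with H3K27me3 of at least 1 RPKM among genes with RNA under 1 RPKM, and the share with H3K4me3 of at least 5 RPKM among genes with RNA of at least 1 RPKM; bars are shares in percent and lines exact 95% intervals. Intronless genes are more often in the low class (56.4% against 35.8%), and both marks are more frequent in the high than in the low class (H3K27me3 41.9% against 7.66% for intronless genes); the low class of the last panel holds 4 intronless genes.

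Short motifs were counted on both strands of the same windows. The letters TATAAA, the core of the TATA box, were in 22.0% of intronless promoters (18.4 to 25.9), in 10.6% of intron-containing promoters and in 13.6% of all 32851 windows of the table. GGGCGG, the core of the GC box, was in 35.6%, 53.5% and 35.7%. Matches were counted anywhere in the window, and median G and C content was 52.3% for intronless and 58.3% for intron-containing promoters. The part of base composition in these shares was not tested. Within the members, GGGCGG was in 67.9% of 56 promoters with H3K4me3 of at least 5 RPKM, in 55.8% of 77 with H3K27me3 of at least 1 RPKM and in 22.9% of 275 with neither. CCAAT was in 45.5% of intronless, 39.2% of intron-containing and 37.4% of all windows, and the E box CACGTG in 5.05%, 9.001% and 7.15%. Of the stretches printed above, those of Purb, Sox2, Neurog1 and Bhlha9 hold GGGCGG on either strand, and that of Tas2r119 holds TATAAA on either strand.

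H3K27me3 at 1000 cells was compared with that at 100000 cells on the log2(RPKM + 0.1) scale. Over all 993 rows, 33 were lower by at least 1 log2 unit and 43 higher, which is 3.32% and 4.33%, near the 4.1% and 5.96% of the table. These counts depend on the pseudocount, with 98 lower and 132 higher at 0.01 and 3 and 0 at 0.5. Among the 96 rows with a mean of at least 1 RPKM, 89 were lower at 1000 cells, with a median log2 difference of -0.61, the same as for intron-containing rows (-0.61, n = 1694). Among the same rows the largest falls were those of 2810030E01Rik (3.56 to 1.18 RPKM, log2 difference -1.52), Pcdh10 (1.93 to 0.66, -1.42) and Kcna3, a potassium channel gene (1.72 to 0.62, -1.34). Among these 96 rows the largest rises were those of Sstr2, a somatostatin receptor gene (0.90 to 1.31, log2 difference 0.50), and Mrgprh, of the Mas-related family (1.05 to 1.5, 0.48). Ranks of members were largely kept, with a Spearman correlation of 0.936 between 100000 and 10000 cells and 0.893 between 100000 and 1000 cells. This describes 993 rows, of which 122 were at 0 in all 3 libraries. Across intron-containing rows the correlations were 0.874 and 0.783.

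The bin table samples the genome in 2 kb bins, and 114 bins lay within 1 kb of a member's start. H3K9me3, the mark of heterochromatin, was tested against panH3 at 1000 cells with limma over all bins, on log2(RPKM + 0.1) with Benjamini-Hochberg adjustment. Of 107 such bins tested, 48 had lower H3K9me3 than panH3 (44.9%) and 11 higher (10.3%), against 24.7% and 15.2% of all bins. At starts of intron-containing genes 61.4% of 2676 bins were lower and 4.37% higher. Of the 89 tested member bins not near an intron-containing start, 39.3% were lower and 12.4% higher. With each library centred on its median, 41.1% of the member bins were lower and 13.1% higher, against 19.8% and 21.7% of all bins, and without panH3 library b 7 member bins were higher. Mean H3K9me3 over the member bins was 0.263 ± 0.0159 RPKM (SD, n = 3) and mean panH3 0.396 ± 0.00218 RPKM (SD, n = 2). The 3 H3K9me3 libraries gave means of 0.280, 0.248 and 0.261 RPKM, all below the 0.395 and 0.398 RPKM of panH3. The labels do not say whether these libraries came from separate cultures, so the p-values measure the spread between libraries, which may be technical.

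Members with and without RNA differed in this as intron-containing genes did. With RNA of at least 1 RPKM, 27 of 33 member bins were lower (81.8%), against 83.3% of 1538 bins at intron-containing starts. With RNA under 1 RPKM, 21 of 74 were lower (28.4%), against 31.9% of 1138. Within each class of RNA the member share of lower bins was close to that of intron-containing starts. Bins near both kinds of start count here as member bins and are left out of the other group. Without them 35 of 89 member bins were lower over both classes of RNA, against 48 of 107 with them. The split by RNA was not repeated without them, so part of the closeness may come from these bins. The share of higher bins was larger for members, from few bins. It was 6.06% (2 bins) against 1.95% with RNA of at least 1 RPKM, and 12.2% (9 bins) against 7.64% with RNA under 1 RPKM. The difference between the groups was not tested.

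The 5 lowest bins were those of Snora41, Snord90, 6430527G18Rik, Snord92 and Tbcc. At Snora41 H3K9me3 was 0.00, 0.07 and 0.13 RPKM in libraries a, b and c and panH3 0.76 and 0.87 RPKM (log2 difference -2.54 ± 0.30 SE, limma adjusted p = 2.74e-07). The starts of the spliced genes Ndufs1 and Eef1b2 also lie in that bin or within 1 kb of it. At Tbcc H3K9me3 was 0.00, 0.07 and 0.06 RPKM and panH3 0.39 and 0.53 RPKM (log2 difference -1.99 ± 0.28 SE, limma adjusted p = 3.35e-06).

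The 5 highest bins included those of Mrgprb3, Tdpoz3 and Rbmxl2. At Mrgprb3, from the Mas-related receptor family, H3K9me3 was 1.25, 0.99 and 0.90 RPKM and panH3 0.33 and 0.44 RPKM (log2 difference 1.24 ± 0.19 SE, limma adjusted p = 9.68e-06). Tdpoz3, from a multi-copy family, had 1.23, 1.09 and 1.51 RPKM against 0.57 and 0.65 RPKM (0.95 ± 0.17 SE, limma adjusted p = 7.05e-05). Rbmxl2, a retrogene copy of the splicing regulator gene Rbmx that is used in testis, had 1.17, 1.29 and 0.99 RPKM against 0.52 and 0.58 RPKM (0.94 ± 0.17 SE, limma adjusted p = 8.74e-05). In each of these 3 bins all H3K9me3 libraries lay above both panH3 libraries. Rbmxl2 is also listed with 16.8 RPKM of RNA, H3K27me3 of 1.16 RPKM and H3K4me3 of 4.82, 22.5 and 17.2 RPKM, and reads of near-identical copies could be counted there. The bins at the Snord116 copies and at Gm16501 and Gm6026 on chromosome Y were higher too (log2 differences 1.10 and 1.06, limma adjusted p = 0.00262 and 0.001), with panH3 of 0.10 to 0.14 and of 0.00 to 0.01 RPKM.

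**Figure D5:**
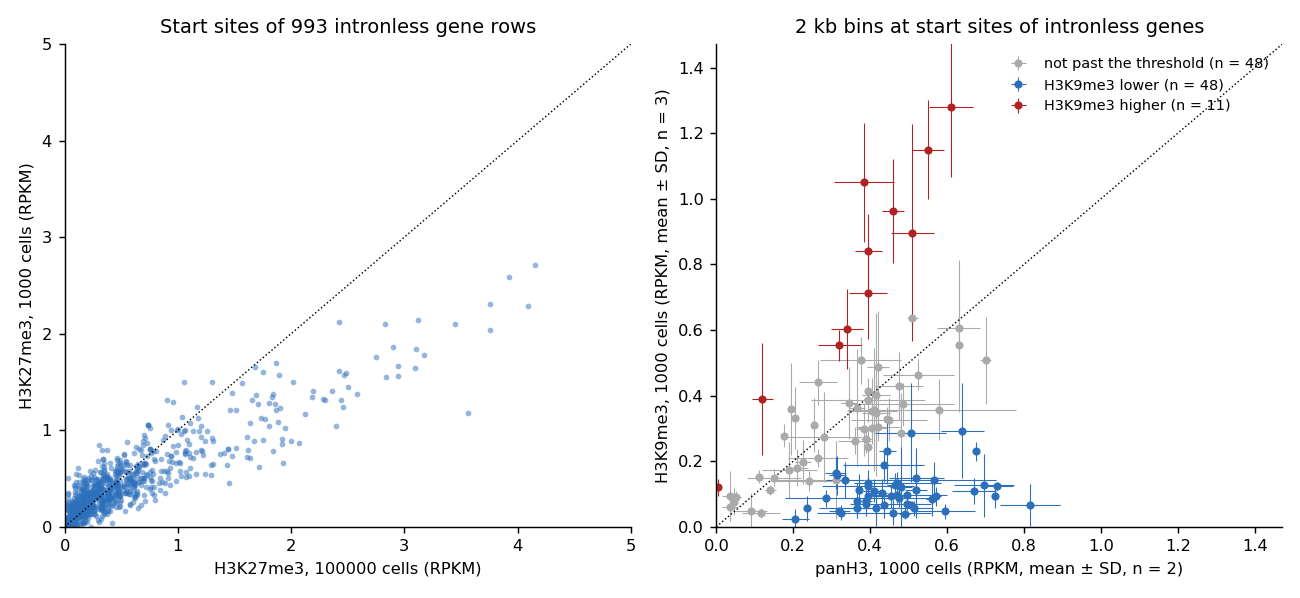
Left, H3K27me3 of each intronless gene row at 100000 cells (x axis) and 1000 cells (y axis), in RPKM; right, panH3 (x axis, mean ± SD of 2 libraries) and H3K9me3 (y axis, mean ± SD of 3 libraries) at 1000 cells, in RPKM, in the 107 bins at start sites of intronless genes, coloured by the limma call. Most rows above 1 RPKM lie below the dotted line of equality on the left (89 of the 96 with a mean of at least 1 RPKM), and on the right 48 bins are called lower and 11 higher.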

How the data were processed

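Native ChIP-seq and RNA-seq libraries of TT2 cells were used as deposited. BWA and SAMtools and the genome mm9 are named per the submitters' processing notes; no source used here gives versions, the counter or duplicate filters. The authors deposited RPKM values, per the file headers: RNA over exons, H3K27me3 within 1 kb of the start, H3K4me3 in 1 kb windows and H3K9me3, H3K27me3 and panH3 in 2 kb bins. Exon and gene lengths are other deposited columns, in base pairs, per the file headers. The panH3 columns carry no unit and were taken as RPKM. Another series accounts for 2 columns of the start-site table, left aside here.

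The members and gene classes were chosen with earlier results of these data known. The largest coordinates of the gene table are rounded, so the rule kept all rows of near-equal length that end below 33.6 Mb, but 25.4% of those that end above 134 Mb. Another 428 rows (401 symbols) differ by 3 to 15 bp and are in neither group. H3K4me3 was joined by symbol.

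Shares of genes past 1 RPKM (RNA, H3K27me3) or 5 RPKM (H3K4me3) are given with exact Clopper-Pearson 95% intervals, which cover counting error and nothing else. Bins were tested with limma 3.58.1 in R 4.3.3 on log2(RPKM + 0.1), H3K9me3 (a, b, c) against panH3 (a, b), two-sided, Benjamini-Hochberg threshold 0.05, after a check on simulated data. The labels do not say whether the letters pair the libraries, and the main test did not pair them. The difference between a and b in H3K9me3 correlated with that in panH3 at -0.00955. This cannot decide it, since differences in single bins also hold counting noise. Named genes are the up to 4 members of a class highest in RNA or H3K27me3 and up to 2 highest in H3K4me3, the 10 highest members in each, the 5 largest rises and falls, the 5 most extreme bins in each direction, the symbols of both forms with the 5 highest RNA and the rows next to the limit of the rule; not all are described. Other steps ran in Python 3.11.15 with scipy 1.17.1 for the intervals, pandas 2.3.3 for the tables, numpy 2.4.6, and matplotlib 3.10.9 for the plots.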

Additional observations from a re-analysis of the deposited data

How the results depend on the processing

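The differences between intronless and intron-containing genes in RNA, H3K27me3 and H3K4me3 kept their sign over all rows under each alternative run, whereas the order of the lower and higher counts between cell numbers, and of the calls over all bins, changed. The share of intronless minus that of intron-containing genes with RNA of at least 1 RPKM was -36.9 percentage points. It was -32.75 with 1 row per symbol, -42.23 from 500 bp of length, -45.0 for NM rows, -44.05 without rows inside another gene, -34.12 at exactly equal lengths and -25.12 at a threshold of 5 RPKM. The difference in H3K27me3 was 3.281 points. It was 5.661 from 500 bp, 6.0 for NM rows and 1.02 at a threshold of 2 RPKM. The difference in H3K4me3 was -15.31 points. It was -5.186 with the mean over windows, -27.52 at a threshold of 2 RPKM and -2.434 at 10 RPKM.

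Alternatives chosen after seeing the data gave -33.46 for RNA and 6.318 for H3K27me3 with single-row IDs, -42.04 for RNA without small structural RNA genes and -18.59 for H3K4me3 without members near an intron-containing start. At RNA above 0 to under 1 RPKM, the H3K27me3 difference of 4.811 points was 10.38 with single-row NM IDs.

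Between cell numbers, 33 members lower and 43 higher at a pseudocount of 0.1 became 98 and 132 at 0.01, 3 and 0 at 0.5, and 1 and 0 at 1. Centring each library gave 71 and 27, and rows with a mean of at least 1 RPKM 12 and 0. Rows up to 15 bp, a limit tried after seeing the data, gave 57 lower. Of the H3K9me3 bins, 48 lower and 11 higher, 24 and 4 were called where the bin had to contain the start. Leaving out 1 library gave 42 to 50 lower and 7 to 12 higher, the 7 without panH3 library b. The 15 bp limit gave 19 higher. With the replicate letter as a block 48 were lower and 11 higher. Over all bins, centring moved the median log2 difference from -0.0962 to 0.0771 and the calls from 24.7% lower and 15.2% higher to 19.8% and 21.7%.

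With 1 library of each of the RNA, H3K27me3 and H3K4me3 kinds, depth limits the smaller libraries most: a start site of H3K4me3 at 10000 cells is read in steps of 0.938 RPKM.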

Other observations

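The rows just outside the limit of the rule hold single-exon genes of the same kinds. Among rows whose lengths differ by 3 to 15 bp, 22.2% of 428 had RNA of at least 1 RPKM, 14.95% (64) had H3K27me3 of at least 1 RPKM at 100000 cells and 12.6% of 253 symbols had H3K4me3 of at least 5 RPKM. At a difference of exactly 2 bp, inside the limit, 14.7% of 299 rows had RNA of at least 1 RPKM and 9.70% H3K27me3 of at least 1 RPKM, and at exactly 3 bp, outside it, 25.4% and 16.2% of 142 rows did. Rows next to the limit inside it were those of Hnrnpa0 (57.9 RPKM of RNA) and Ankrd43 (3.45 RPKM of H3K27me3). Outside it stood Rpph1, the RNA of RNase P, with 2963 RPKM of RNA, Pcbp1, an RNA-binding protein gene, with 48.4 RPKM of RNA, and Sox21, a transcription factor gene, with H3K27me3 of 3.93, 4.24 and 1.84 RPKM at 100000, 10000 and 1000 cells.

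For 24 symbols the table has a single-exon row and a spliced row. Purg, a relative of Purb, was listed at 2.74 RPKM of RNA in its single-exon form and 9.85 RPKM in its spliced form, with the same start and so the same H3K27me3 of 0.44 RPKM at 100000 cells. Smcr8 had 5.40 and 5.05 RPKM from a shared start. For Gm5801 and BC002163 the rows lie at different places, 98690052 and 80439716 bp apart, with RNA of 7.30 and 17.3 RPKM and of 4.68 and 5.02 RPKM.

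On chromosome X, 4 of 97 member rows had RNA of at least 1 RPKM and 2 had H3K27me3 of at least 1 RPKM at 100000 cells (4.12% and 2.06%), against 43.2% and 1.28% of 1168 intron-containing rows there. The mean of panH3 in bins of chromosome X of these male cells was 0.187 RPKM, and 37 of the 206 rows with repeated IDs lie there.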
